A study of Mus musculus with 2 samples.

Results

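Mir126a is the mouse gene of miR-126, a miRNA that lies inside Egfl7, a gene for a secreted protein of blood vessel walls. It was followed through 2 small RNA libraries of newborn skeletal muscle, and it was 1 of 1973 miRNA genes listed in the deposited counts. The gene was found by its Ensembl identifier (ENSMUSG00000065540), which GENCODE M21 pairs with the symbol Mir126a. Mir126b, annotated on the other strand of the same place, was not among the listed genes.

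The muscle came from B6NCrl mice at postnatal day 0, from 2 pups of 1 litter. The library of pup 1 is named replicate 1 and that of pup 2 replicate 2. No sex was collected, no treatment or mutation is given, and both libraries form 1 group. No condition was therefore compared, and each value describes 1 pup, 1 dissection and 1 library at once. Replicate 1 held 3754895 reads counted on a gene's own strand and replicate 2 held 5133949, out of 7141344 and 9944560 reads in all. Multimapping reads (30.2% of replicate 1, 29.9% of replicate 2) were not assigned to any gene.

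miRNAs are short RNAs cut from a hairpin precursor. The Argonaute protein carries 1 strand of the cut duplex and pairs it, mainly through the seed near its 5′ end, with messenger RNAs whose output then drops. miR-126 is known as a miRNA of endothelial cells, the lining of blood vessels. In mice and zebrafish it helps vessels keep their integrity, in part by lowering Spred1 and Pik3r2, which hold back signalling from the receptor of vascular endothelial growth factor. It has also been found in platelets and in blood progenitor cells. Skeletal muscle is dense in capillaries, so bulk muscle RNA holds endothelial RNA.

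The sequences below, from the RefSeq table on GRCm38.p6, show what a read of Mir126a can come from. In the hairpin the capitals mark the mature 3p arm, and in the mature miRNA they mark the seed, bases 2 to 8.
Mir126a hairpin (chr2:26591357-26591429, plus strand): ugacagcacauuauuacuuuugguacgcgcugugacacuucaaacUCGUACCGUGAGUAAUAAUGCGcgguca
mmu-miR-126a-3p (chr2:26591402-26591423, plus strand): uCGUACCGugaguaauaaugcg

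The hairpin is 73 bases long. RNAfold gave it a minimum free energy of -31.2 kcal/mol with 27 base pairs, a stem with a short loop. The counts are per gene, so reads of the 3p arm and of the other arm of the hairpin are summed and cannot be separated. No other mature miRNA among the 1679 names of the RefSeq table had the seed of miR-126a-3p. The seed of the other arm was not searched, because the table did not hold that arm. No other miRNA gene of GENCODE M21 shared a stretch of 20 bases with the Mir126a hairpin on the same strand (0 genes), unlike 923 of the listed genes, which shared such a stretch with at least 1 other gene.

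On mm10 the Mir126a gene spans 26591357 to 26591429 of chromosome 2, plus strand. Its host Egfl7 lies on the same strand and runs from 26580014 to 26593120. Of the 19 annotated Egfl7 transcripts, 8 carry it in an intron, 1 transcript with a retained intron carries it in an exon, and 10 do not span it. In 6 of the 8 the intron is the same, 600 bases from 26591064 to 26591663, counted as intron 7 in 4 transcripts and as intron 6 in 2. It also lies in an intron of Gm20532, a longer overlapping gene on that strand. Egfl7 messenger RNA itself was not measured by these libraries. The nearest listed miRNA genes were far away and nearly silent. Mir6996, 121 kb to the left, had 4 and 8 counts, and Gm24049, 810 kb to the right, had 0 counts in both libraries.

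Mir126a was among the most abundant miRNA genes of newborn muscle. It had 153145 own-strand counts in replicate 1 and 187689 in replicate 2. Scaled to CPM, the counts per 1000000 reads counted in the listed genes, these were 40785 CPM in replicate 1 and 36558 CPM in replicate 2, a mean of 38672 ± 2989 CPM (SD, n = 2). The gene ranked 7 of 1973 in replicate 1 and 8 of 1973 in replicate 2, and 8 by the mean. By the mean it would rank 6 if genes sharing a 20-base stretch with another, such as Mir411, were left out. It would rank 9 if opposite-strand reads were counted as well. Multimapping reads were not assigned to any gene, so genes that share such stretches can rank too low. Mir126a shares no such stretch and can thus rank too high, which was not tested. Its share of gene counts was 4.08% for replicate 1, with an exact 95% Clopper-Pearson interval of 4.06 to 4.10. For replicate 2 it was 3.66%, with an interval of 3.64 to 3.67, so about 1 in 24.5 and 1 in 27.4 counted reads came from this hairpin. The intervals cover counting error only. In bulk muscle, more or fewer endothelial cells and more or less miR-126 per cell cannot be told apart, and protein-coding endothelial markers were not measured here.

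**Figure D1:**
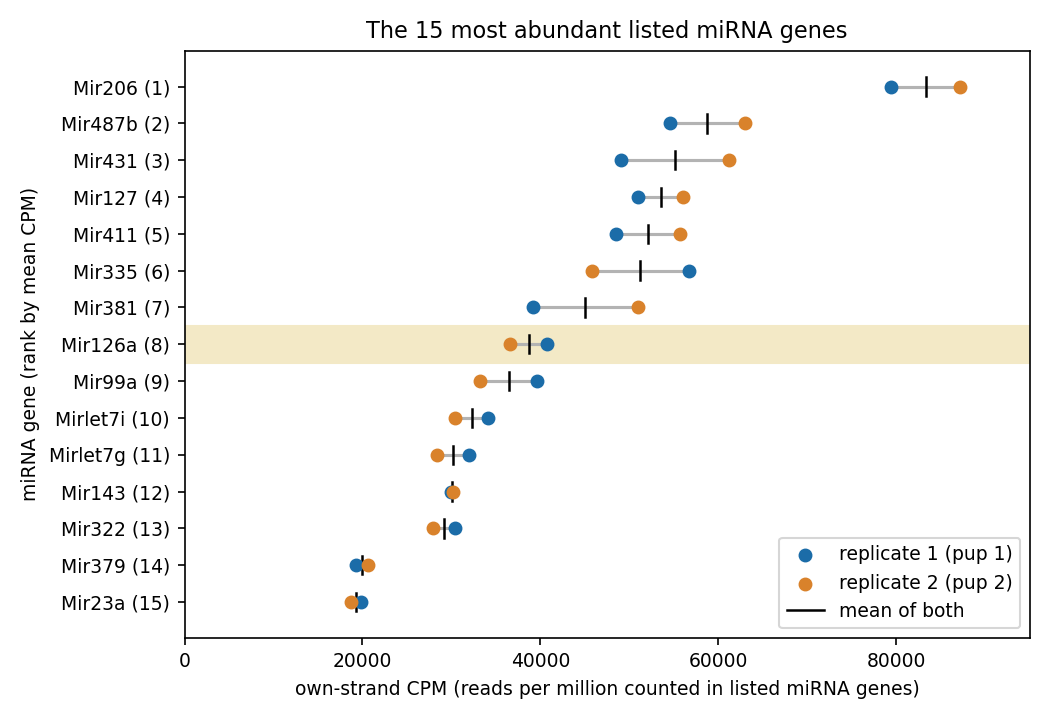
Own-strand CPM (x axis, linear from 0) of the 15 miRNA genes with the highest mean CPM (y axis, rank in brackets), with 1 point per library and a black tick at the mean. Mir126a, shaded, sat at 40785 and 36558 CPM, and the ranges of Mir381 above it and Mir99a below it overlapped its own.

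The genes next to Mir126a in rank showed where its place held in both libraries. Above it by mean, Mir381 of the imprinted Dlk1-Dio3 region had 39158 CPM in replicate 1 and 50924 CPM in replicate 2. It was thus lower than Mir126a in replicate 1 and higher in replicate 2, so the order of these 2 genes changed with the library. Mir99a, next below, had 39653 CPM in replicate 1 and 33239 CPM in replicate 2. It was lower than Mir126a in both libraries, but its range overlapped that of Mir126a. The other 4 genes within 5 ranks above (Mir431, Mir127, Mir411 and Mir335) had every value at 45784 CPM or higher, and the other 4 within 5 ranks below (Mirlet7i, Mirlet7g, Mir143 and Mir322) had every value at 34157 CPM or lower. Neither set overlapped Mir126a, which stood between the imprinted genes above and the let-7, smooth muscle and Mir322 genes below.

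By its level in both libraries, the gene most like Mir126a was Mir99a. The Euclidean distance of log2(CPM + 1) over the 2 libraries was 0.14 for Mir99a, 0.37 for Mirlet7i, 0.48 for Mir381, 0.51 for Mirlet7g and 0.52 for Mir143, the 5 smallest among 310 genes with at least 10 counts in both libraries. With 2 samples this ranks levels only. Against the median of those 310 genes, 171 CPM, the mean of Mir126a was 226 times as high.

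Chromosome 2 carried 224 listed miRNA genes, 24 of them with at least 10 counts in both libraries. Mir126a gave 59.8% of all counts of the chromosome in replicate 1 and 59.8% in replicate 2. Some genes of the chromosome, such as Mir1a-1 and Mir133a-2, share 20-base stretches with other miRNA genes, so their counts can be too low. The share of Mir126a can then be too high, by an amount that was not tested. The next gene there, Mir130a, also known from work on endothelial cells, had 9037 ± 1060 CPM (SD, n = 2).

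The 2 pups had nearly the same relative level of Mir126a. In CPM, replicate 1 was 1.12-fold of replicate 2. CPM depends on the other genes counted, and scaling by the trimmed mean of M values (TMM, factors 1.05 in replicate 1 and 0.955 in replicate 2) moved every ratio by the same amount. After it, the median log2 ratio of replicate 1 over replicate 2 over the genes tested was -0.0059, against 0.13 with total counts. On the TMM scale, the log2 ratio of Mir126a was 0.026 (95% counting interval 0.016 to 0.036), a 1.02-fold difference. That exceeded counting error in an exact binomial test of the 2 libraries (Benjamini-Hochberg adjusted p = 4.11e-07 over 373 genes), as it did for 49.1% of the genes tested. With a minimum of 2-fold added, 5.09% of genes were called and Mir126a was not. The test compares these 2 libraries, not conditions, and at these counts even a 1.02-fold difference exceeded counting error.

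Among the 22 genes with a mean of at least 10000 CPM, 1 had a smaller absolute log2 ratio than Mir126a, Mir322 at -0.0076, and 20 had a larger one. The median of the 22 was 0.15 and the largest was 0.51, for Mir381. By the coefficient of variation of CPM, without TMM, Mir126a at 7.73% lay near the middle of these genes: 9 had a lower value and 12 a higher one, around a median of 8.27%. How closely the pups matched for Mir126a, compared with other abundant genes, therefore depended on the scaling.

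**Figure D2:**
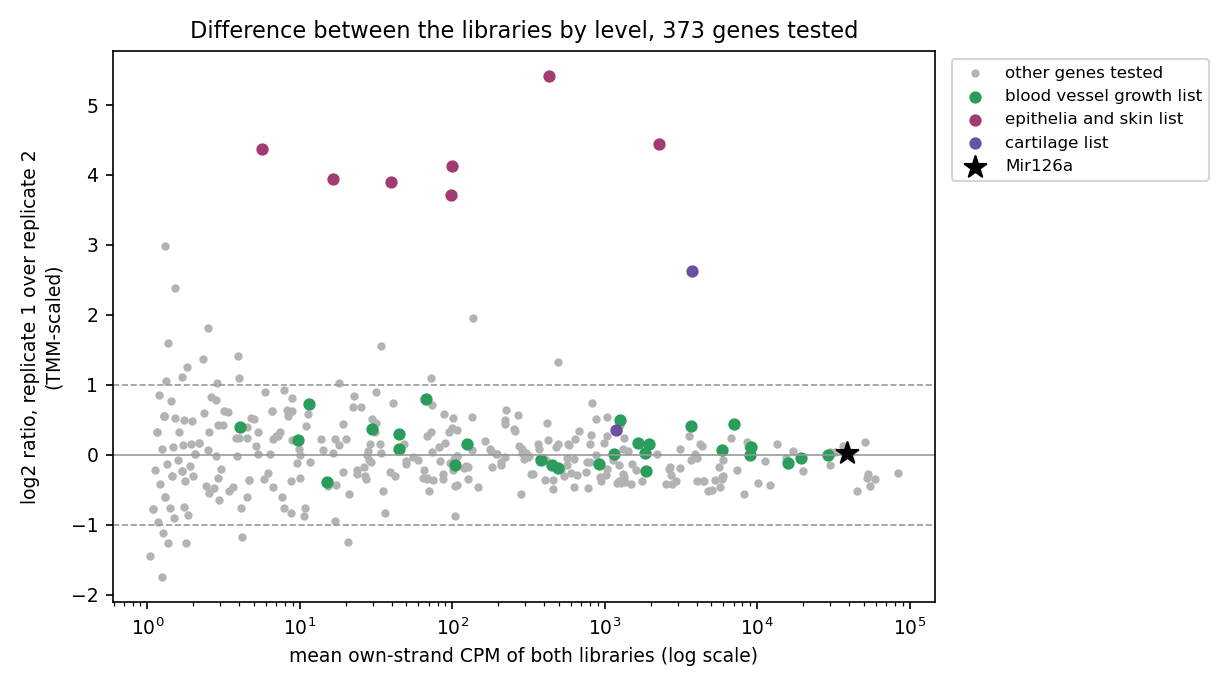
Log2 ratio of replicate 1 over replicate 2 after TMM scaling (y axis) against mean own-strand CPM (x axis, log scale) for the 373 genes tested, with dashed lines at 2-fold. Mir126a (star) sat at 0.026, while all 7 genes of the epithelia and skin list and Mir140 lay above the upper line.

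Genes of other tissues that a dissected muscle can hold did differ between the pups. All 7 genes of the epithelia and skin list were called higher in replicate 1, beside 5.09% of all genes tested, 17 of the 19 genes behind that share being higher in replicate 1. Their summed share was 0.569% for replicate 1 against 0.0230% for replicate 2. None of the 7 was at 0. The cartilage list of Mir140 and Mir455 came to 0.792% in replicate 1 and 0.195% in replicate 2, with Mir140 called. Mir126a was 9.36 times the level of Mir203, the most abundant epithelial gene of the list, in replicate 1 and 200.1 times in replicate 2. Mir203 itself had 4356 CPM in replicate 1 and 183 CPM in replicate 2. The part of these tissues in the Mir126a counts was not tested.

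Blood can also carry miR-126, so the blood cell genes were set beside it. The red blood cell list, Mir451a and Mir144, came to 0.0416% of replicate 1 and 0.0299% of replicate 2, and Mir126a had 98.0 and 122 times the counts of both genes summed. The list of white blood cells and platelets held 0.0646% in replicate 1 and 0.0458% in replicate 2 over the 4 of its 5 genes that were listed (Mir223, Mir150, Mir155 and Mir146). Its most abundant gene, Mir223, a gene of myeloid cells and platelets, had 505 CPM in replicate 1 and 335 CPM in replicate 2, so Mir126a was 80.8 and 109 times as high. In these 2 lists 0 of 6 genes were called, beside 5.09% of all genes tested, and no listed member was at 0. Beyond counting error with no minimum on the ratio, Mir451a (log2 ratio 0.57) and Mir223 (0.46) were higher in replicate 1 and Mir144 (-0.34) was lower there. Mir142, the fifth gene of the white blood cell and platelet list, was not among the listed genes. Mir146 of that list shares a 20-base stretch with another miRNA gene, so its count can be too low, which was not tested. How much of the Mir126a count came from blood was not tested.

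Mir126a was set against genes known from the other main tissues of a muscle. It was 1.36 times as high as Mir143, which is known from smooth muscle and the mural cells around vessels, in replicate 1 and 1.21 times as high in replicate 2, a mean log2 difference in level of 0.36 ± 0.12 (SD, n = 2). Both libraries had the same order. Mir145a, made from the same cluster as Mir143, was much lower, at 583 CPM in replicate 1 and 551 CPM in replicate 2. Against Mir206, a miRNA of skeletal muscle fibres and myoblasts and the most abundant listed gene, Mir126a was lower in both libraries, at 0.513 and 0.419 of its level (mean log2 difference -1.11 ± 0.21, SD, n = 2). The 8 listed genes of the striated muscle list came to 8.13% of replicate 1 and 8.93% of replicate 2, so Mir126a alone equalled 0.502 and 0.409 of that list. Of these 8, 4 (Mir133b, Mir1a-1, Mir133a-1 and Mir133a-2) share 20-base stretches with other miRNA genes. Multimapping reads were not assigned to any gene, so the counts of these 4 can be too low. Mir1a-1, for example, had 24 counts in replicate 1 and 46 in replicate 2. The share of the list can then be too low and the ratio of Mir126a to it too high, by an amount that was not tested. Mir1a-2 was not analysed here, and nearly all counts of the list were those of Mir206. Each read comes from 1 short RNA, so CPM needs no correction for hairpin length. Adapters join some miRNAs more readily than others, however, and that was not corrected or tested.

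Other miRNA genes known from work on endothelial cells or on blood vessel growth gave the wider setting. That list names 34 genes, of which 32 were in the files and 29 reached 10 counts in both libraries. Mir216a was at 0 in both, and Mir217 and Mir218-1 had at most 6 counts. The list came to 15.8% of replicate 1 and 14.2% of replicate 2, and Mir126a made up 25.8% of the list in each. Without Mir126a it held 11.8% and 10.5%. Many of these genes are also used outside vessels, so the share of the list does not measure endothelium. Of the 32 listed genes, 9 share 20-base stretches with other miRNA genes, so their counts can be too low. The part of Mir126a in the list can then be too high, which was not tested.

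Mir126a was the highest of the list in both libraries. Mir322, the mouse counterpart of human miR-424, which responds to low oxygen in endothelial cells, followed at 30431 CPM in replicate 1 and 27925 CPM in replicate 2. Mir23a, from the cluster with Mir27a and Mir24-2 that supports sprouting of vessels, had 19871 CPM in replicate 1 and 18758 CPM in replicate 2. Its paralogue Mir23b had 15920 and 15802 CPM. All 3 lay below Mir126a in both libraries with no overlap, but Mir23a and Mir23b share 20-base stretches with other miRNA genes, so their counts are uncertain. The other genes among the 10 most abundant were Mir130a, Mir10b, which steers sprouting in zebrafish, Mir21a, Mir214, Mir17 and Mir10a, with means from 9037 down to 1953 CPM.

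Other members of the list had lower levels. Mir221 and Mir222, which lower the receptor Kit in human endothelial cells, had means of 66.9 and 29.9 CPM. Mir126a was 578 times as high as Mir221. Mir210, a miRNA induced by low oxygen, had 496 ± 13.3 CPM, Mir132, which acts on sprouting, 105 ± 0.743 CPM, and Mir155, induced by inflammation, 44.9 ± 9.54 CPM (SD, n = 2 each). Mir92-1, from the cluster led by Mir17, had 910 ± 2.56 CPM, and it shares a 20-base stretch with another gene.

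Within the list 0 of the 29 genes tested were called between the pups, against 5.09% of all genes. With no minimum on the ratio, 16 of the 29 differed beyond counting error, 10 of them upwards in replicate 1 and 6 upwards in replicate 2, beside 49.1% of all genes tested. The median log2 ratio of the list was 0.075, against -0.0059 over all genes tested. The largest log2 ratio of the 29 was that of Mir221, at 0.80, and among the more abundant members Mir20a had 0.50, Mir21a 0.44 and Mir17 0.41, each higher in replicate 1. These 4 were chosen for large ratios after their values were seen, so a comparison of Mir126a with them tells nothing. On the TMM scale Mir322 (-0.0076), Mir10b (-0.0078) and Mir18 (0.015) of the list were nearer to 0 than Mir126a (0.026).

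**Figure D3:**
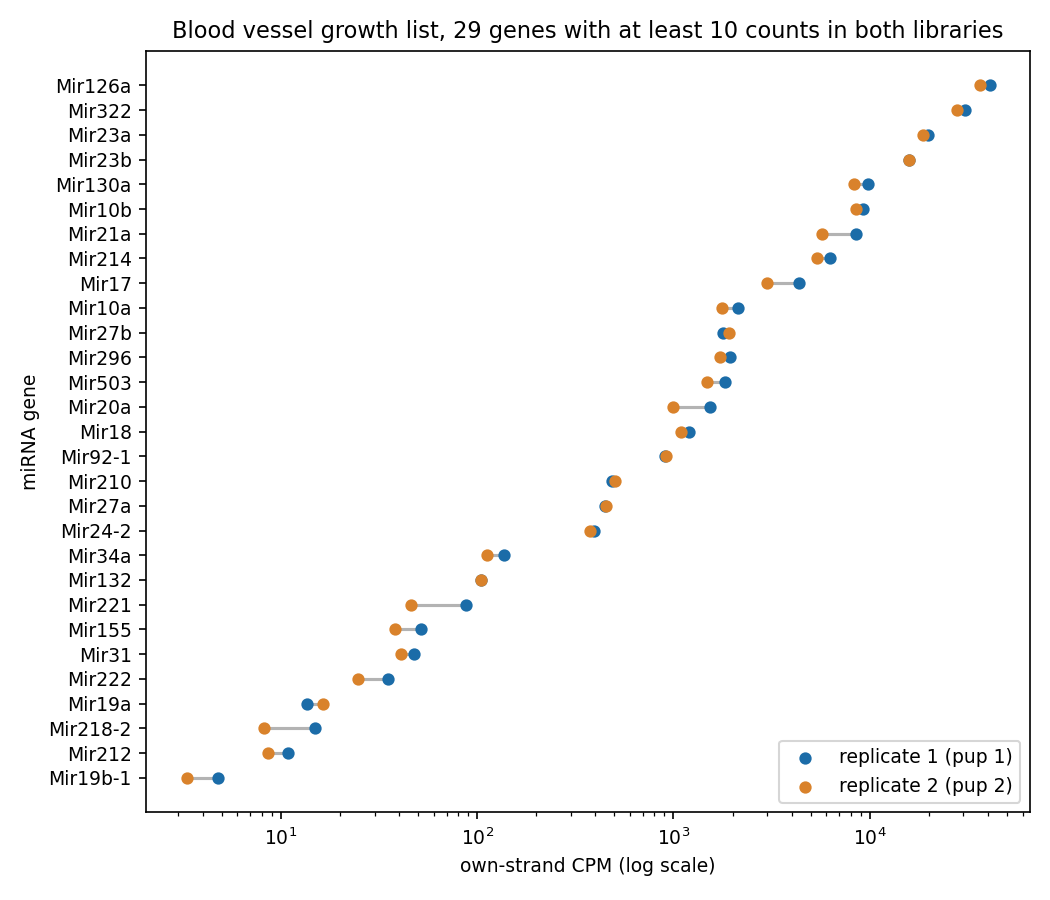
Own-strand CPM (x axis, log scale) of the 29 genes of the blood vessel growth list with at least 10 counts in both libraries (y axis, sorted by mean), with 1 point per library. Mir126a was highest in both libraries, and the list spanned levels from 40785 CPM down to 3.31 CPM.

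The strand opposite Mir126a is annotated too. The Mir126b hairpin, 58 bases from 26591363 to 26591420 on the minus strand, is the reverse complement of bases 7 to 64 of the Mir126a hairpin. Its sequences are shown because reads counted opposite Mir126a come from this strand. Capitals mark the 2 mature arms in the hairpin and the seeds in the mature miRNAs.
Mir126b hairpin (chr2:26591363-26591420, minus strand): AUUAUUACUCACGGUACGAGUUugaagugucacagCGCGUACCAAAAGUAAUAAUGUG
mmu-miR-126b-5p (chr2:26591399-26591420, minus strand): aUUAUUACucacgguacgaguu
mmu-miR-126b-3p (chr2:26591363-26591385, minus strand): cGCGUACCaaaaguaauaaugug

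The 5p arm of Mir126b faces miR-126a-3p over 19 bases, but the seeds of the 2 miRNAs differ, and no other mature miRNA of the table had either Mir126b seed. The Mir126b hairpin folded less stably, at -19.3 kcal/mol with 21 base pairs.

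Few reads came from that strand. Opposite Mir126a there were 31 counts in replicate 1 and 4 in replicate 2, or 0.0202% (95% interval 0.0138 to 0.0287) and 0.00213% (0.000581 to 0.00546) of its reads on either strand. The 2 intervals did not overlap. Over the 1862 matched genes with no miRNA gene annotated on the other strand, the summed share was 0.00173% for replicate 1, with an interval of 0.00132 to 0.00222, and 0.00140% for replicate 2, with an interval of 0.00109 to 0.00177. Mir126a thus lay above that level in replicate 1, while its interval included that level in replicate 2. Of the 53 genes with at least 10000 own-strand counts in both libraries, 46 had 0 opposite counts in replicate 1, and Mir434 and Mir337 had a higher share than Mir126a there. In replicate 2, 8 of the 53 had a higher share. Mir434, with no miRNA gene annotated on the other strand, had 0.0261% in replicate 1 and 0.0229% in replicate 2. Mir126a is 1 of 32 matched genes that have one, and over these 32 the summed share was 65.4% in replicate 1 and 70.6% in replicate 2. That sum includes genes counted mostly on the opposite strand, such as Mir299b with 22 own-strand and 37783 opposite counts in replicate 1. It is thus no measure for a gene with many own-strand counts. Mir337, among the 53 genes and also with a miRNA gene on the other strand, had 0.493% in replicate 1 and 0.784% in replicate 2. The antisense strand of this locus thus gave few reads beside the sense strand in both pups. The counts do not show whether those reads match a mature arm of Mir126b.

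**Figure D4:**
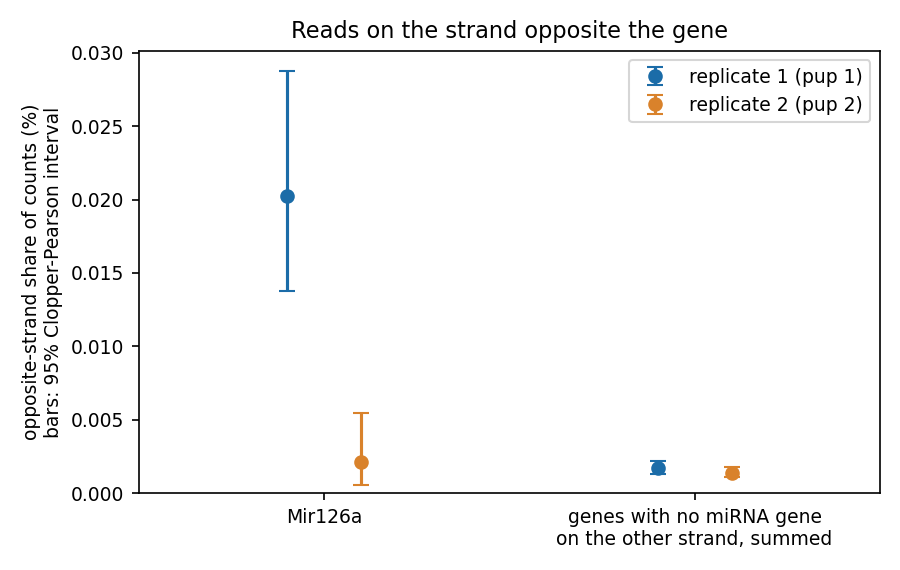
Share of reads on the opposite strand (y axis, percent of reads on either strand, linear from 0) for Mir126a and for the 1862 genes with no miRNA gene on the other strand summed, with 95% Clopper-Pearson intervals for each library. Mir126a in replicate 1, at 0.0202%, stood above the other 3 values.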

How the data were processed

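Small RNA (labelled as under 30 bases) was sequenced from total RNA of newborn mouse skeletal muscle in 2 libraries. Per the deposited descriptions of the libraries, the authors quantified miRNA genes on mm10 with the M4 annotation, giving whole-number read counts per gene and library. The aligner and the counting program are not given in the sources used here. Both tables, as deposited, have 3 columns of counts, the first being the sum of the other 2 in every gene. These were read, from their layout, as either strand, own strand and opposite strand. The 4 leading lines for reads without a gene were kept apart from library sizes. For replicate 1 they were 30.2% multimapping, 9.66% unmapped, 7.56% without a gene on their own strand and 0 ambiguous reads, and for replicate 2 they were 29.9%, 10.1%, 8.44% and 0. Own-strand counts in genes were 52.6% and 51.6% of all reads.

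Identifiers, versions dropped, were matched to GENCODE M21 (1894 of 1973), an annotation of the same genome build. The 79 unmatched genes had at most 1 count per library. Sequences came from the RefSeq table on GRCm38.p6, whose coordinates for both hairpins equal those of GENCODE. Hairpins were folded with RNAfold (ViennaRNA 2.7.2).

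CPM is own-strand counts over the library's own-strand total. Libraries were compared with TMM factors (edgeR 4.0.16, R 4.3.3), 0.5 added to each count for ratios, and an exact two-sided binomial test on genes with at least 10 counts in total, Benjamini-Hochberg adjusted. A called gene has an adjusted p under 0.05 and a ratio of at least 2-fold. A count of 0 allows up to 3 counts, 0.799 CPM in replicate 1 and 0.584 CPM in replicate 2. Intervals are Clopper-Pearson at 95% (scipy 1.17.1). Reads carried no molecular identifiers, so both intervals and these floors reflect counting error alone. The comparison was tested on simulated data. Alternatives were either-strand counts, other denominators, DESeq2 1.42.0 size factors, total counts, other filters and pseudocounts, each library alone, and genes without shared stretches.

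The member and the gene lists were chosen with earlier results of these data known. Named genes were Mir126a, the 10 most abundant of the vessel list, the 5 genes on each side in rank, the 5 nearest in level, up to 3 of each marker list and the nearest listed genes on the chromosome. Further members of the vessel list with at least 10 counts in both libraries could be named.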

Additional observations from a re-analysis of the deposited data

Results flagged for a closer look

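Opposite-strand counts, which the level of Mir126a does not use, exceeded the 3 counts that a count of 0 allows in both libraries. They were 31 in replicate 1 and 4 in replicate 2, at a place where Mir126b is annotated on that strand. Those 3 counts are not a background level. In replicate 2 the interval of the opposite-strand share included the summed share of genes with no miRNA gene on the other strand.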

How the results depend on the processing

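The log2 ratio of Mir126a between the libraries and its log2 differences to Mir143 and Mir206 kept their sign under the settings run. Levels, ranks and shares have no direction. Of 33 alternative values, 10 moved, all of them levels and ranks of Mir126a or shares of the vessel list. A level, rank, share or log2 difference moved if at least the SD of the 2 libraries away from the value reported. The log2 ratio between the libraries was judged by its sign and call instead, and the number of called genes by fold change. With 2 libraries, a level, share or log2 difference from each library alone always lies within that SD, so it could not move. The mean level of Mir126a was 34553 CPM with either-strand counts, 20159 CPM when scaled to all reads and 42178 CPM without Mir206 in the denominator, since the denominators differ by construction. Each library alone gave 36558 to 40785 CPM. Its rank was 9 with either-strand counts and 9 with the larger strand of each gene, 6 among genes without a shared 20-base stretch, and 7 to 8 with each library alone. Total-count scaling gave a log2 ratio of 0.16 and DESeq2 size factors 0.028, and called genes numbered 13 to 22 around 19. The share of the vessel list was 13.4% with either-strand counts, 7.82% of all reads and 11.1% without Mir126a, and 14.2% to 15.8% with each library alone. Each library alone gave opposite-strand shares of 0.00213% to 0.0202%, log2 differences to Mir143 of 0.28 to 0.44 and to Mir206 of -1.25 to -0.96. Summing Mir126a and Mir126b was not run, because Mir126b is not listed. No paired analysis was possible because both libraries belong to 1 group. With 2 libraries, the SD itself is uncertain.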
